A study of Drosophila melanogaster with 12 samples.

Results

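The genes described here are 10 heat shock proteins and related chaperones of Drosophila melanogaster, measured in whole fly heads. Hsp22, Hsp23, Hsp26, Hsp27 and Hsp67Bc are small heat shock proteins. Hsp68, Hsc70-1 and Hsc70-4 belong to the HSP70 family, Hsp83 is the fly's cytosolic HSP90, and DnaJ-1 is an HSP40. A probe set, the group of probes that an Affymetrix array reads as 1 value, was taken where the array annotation named exactly 1 gene and that gene was on the list. This gave 8 of the 18952 probe sets, for 6 genes. Hsc70-1 had 3 of them, and Hsp26, Hsp27, Hsp68, Hsc70-4 and DnaJ-1 had 1 each. Hsp22 was named by 2 probe sets that also name CG4456, so their signal cannot be given to either gene, and they are described apart. Hsp23, Hsp67Bc and Hsp83 were not analysed here.

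Chaperones of these families bind unfolded proteins. Small heat shock proteins hold them in large assemblies without using ATP, while HSP70 proteins, brought to their clients by HSP40 proteins such as DnaJ-1, refold them in cycles of ATP hydrolysis, and HSP90 acts on late folding steps of kinases and receptors. Heat and other stress that unfolds proteins activates the transcription factor Hsf, which drives the inducible genes, among them Hsp22, Hsp23, Hsp26, Hsp27, Hsp68 and the Hsp70 copies. The proteins named Hsc70 are cognates, made without stress. Neurons also use this machinery at the synapse, where the HSP70 cognate Hsc70-4 strips clathrin from vesicles.

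The 12 arrays fell into 4 groups of 3. CS_0 stands for untreated wild-type flies, CS_50 for wild-type flies on 50 mM lithium, Shu_0 for untreated mutants, and Shu_50 for mutants at 50 mM, for which the labels give the dose and the series title names lithium. Shu, or Shudderer, is listed in the gene annotation as a name of para, the voltage-gated sodium channel gene. The labels call the treatment type acclimatization and give no sex, age or length of treatment. Nothing says that the 3 replicates came from separate cultures, so p values measure the spread between these samples only. Signals are in the deposited intensity units, differences are on the log2(signal + 6.16) scale with their SE (n = 3 arrays per group), and a probe set was called at an adjusted p under 0.05 in limma over the 11261 tested. All 8 probe sets passed the filter on dim signal. Array medians lay between 23.9 and 25.8 units, and replicates of a group correlated at 0.978 to 0.983. The head markers elav (neurons) and repo (glia) read 310 to 455 and 392 to 464 units over the 12 arrays. On the first principal component (18.1% of the variance) every wild-type array was negative and every mutant array positive. The extreme arrays, at the ends of this separation of genotypes, were replicate 3 of CS_0 (-20.5) and replicate 1 of Shu_0 (18.0). Results that rest on these arrays are given without them.

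With lithium, only probe sets of Hsc70-1 were called among the 8, and they were lower. The probe set that Hsp22 shares with CG4456 is not among the 8, and it was called higher in both genotypes, as described below. In the wild type 1 of the 8 probe sets was called, and it was lower, against 0.622% of all tested probe sets called lower. In the mutant 2 of the 8 were called, both lower, against 0.648%. The called probe sets were all of Hsc70-1, so these are not independent genes. The median difference over the 8 was -0.0349 for wild-type heads and -0.0321 for mutant heads, beside 0.00312 and -0.0123 over all tested. None of the 8 was called between the genotypes, untreated or on lithium, where 5.06% and 0.506% of all tested were called.

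Hsc70-1, on chromosome arm 3L, is an HSP70 cognate. Its probe set 1636956_at read 401, 410.5 and 386 units in CS_0 and 317, 286 and 313 in CS_50. In the mutant it read 426, 336 and 379 in Shu_0 and 294, 275 and 288 in Shu_50. Every lithium array lay below every untreated array of either genotype. In the wild type the mean went from 399 ± 12.3 (SD) to 306 ± 16.7 (log2 -0.38 ± 0.08, adjusted p = 0.0218), which is 1.30-fold lower. In the mutant it went from 380.2 ± 45.5 to 286 ± 9.31 (log2 -0.40 ± 0.08, adjusted p = 0.0107), which is 1.32-fold lower. Leaving out 1 wild-type array ended the first call in 4 cases, namely replicate 1 of CS_0 (adjusted p = 0.0711), replicate 2 of CS_0 (0.0731), replicate 2 of CS_50 (0.12) and replicate 3 of CS_50 (0.0671). In the mutant it was lost without Shu_0 replicate 1, the highest of the 12 arrays (log2 -0.31, adjusted p = 0.0726), and without that array and CS_0 replicate 3 together (adjusted p = 0.0689). Without the intensity trend in the variance both calls were lost (adjusted p = 0.115 and 0.0774).

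A further probe set of Hsc70-1, 1639380_a_at, gave the firmest value of the list. It read 363, 348 and 346 units in CS_0 and 301, 309.9 and 279 in CS_50. The mutant gave 369, 350.1 and 362 in Shu_0 and 238, 245 and 273 in Shu_50. Here too all 6 lithium arrays lay below all 6 untreated ones. In the mutant the mean fell from 360.1 ± 9.32 to 252 ± 18.3 (log2 -0.51 ± 0.07, adjusted p = 0.000416), and this call held under all 22 alternatives (adjusted p from 0.00033 to 0.00921). In the wild type the means were 352 ± 9.08 and 297 ± 15.8, a difference of log2 -0.24 ± 0.07 that was not called (adjusted p = 0.097), although the arrays did not overlap. Arrays without overlap, in either direction, occurred in 19.1% of tested probe sets for the wild type and 15.8% for the mutant, and lower in both contrasts at once in 1.77%. On this probe set Shu_50 also lay below CS_50 on every array (log2 -0.23 ± 0.07, adjusted p = 0.173), in a comparison where 18.9% of tested probe sets had no overlap in one direction or the other.

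The remaining probe set of Hsc70-1, 1627963_s_at, was dimmer and more variable. It read 49.8, 38.4 and 56.1 units in CS_0, 50.5, 33.4 and 38.1 in CS_50, 64.6, 39.9 and 61.7 in Shu_0, and 31.4, 30.4 and 49.1 in Shu_50. Its groups overlapped, and its differences with lithium, -0.21 ± 0.21 for wild-type and -0.51 ± 0.21 for mutant heads, had the sign of the others without being called (adjusted p = 0.736 and 0.326). Over the 12 arrays the bright pair correlated at r = 0.863, and the dim one with them at 0.681 and 0.689. Once the group means were removed the bright pair correlated at 0.107, and the dim one with them at 0.538 and 0.546. By mean signal of 1639380_a_at the groups ran from Shu_0 through CS_0 and CS_50 to Shu_50, and the untreated groups at the top overlapped (log2 0.03 ± 0.07, adjusted p = 0.848).

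Whether lithium acted differently on Hsc70-1 in the 2 genotypes was tested by the interaction. It was -0.02 ± 0.11 for 1636956_at (95% interval -0.26 to 0.22, adjusted p = 0.99) and -0.26 ± 0.10 for 1639380_a_at (-0.47 to -0.06), the latter with an unadjusted p = 0.0149 and adjusted p = 0.694 by limma. None of the 8 probe sets was called in the interaction by limma, and 0.00888% of all tested were. At an unadjusted p under 0.05 the interaction took in 1 of the 8 and 6.73% of all tested. Over the differences among all 4 groups together (limma's F test) 1636956_at and 1639380_a_at were called, with adjusted p = 0.00188 and 0.00039, where 8.50% of all tested were.

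**Figure D1:**
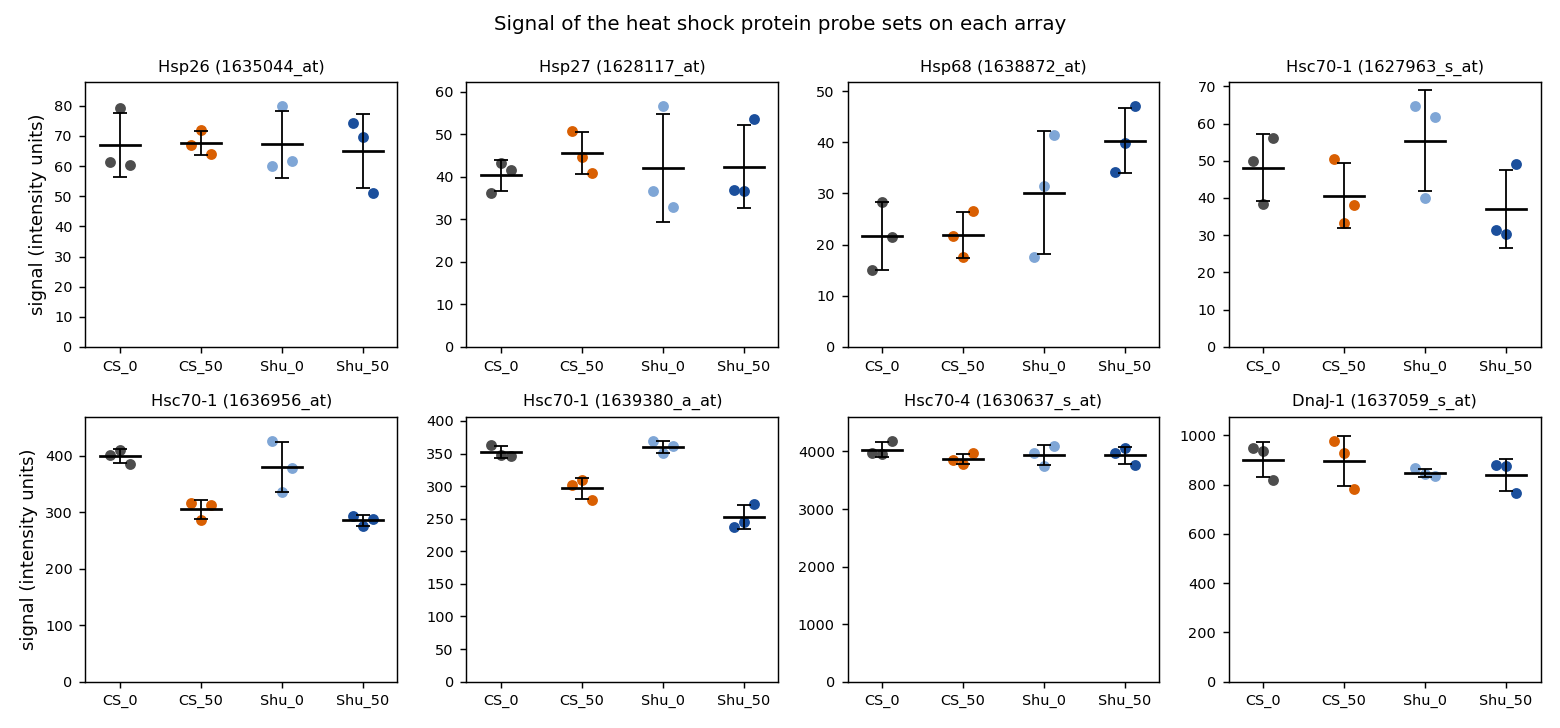
Signal in intensity units (linear axis from 0) of the 8 probe sets on each of the 12 arrays, by group. Points are arrays, the wide line is the mean of 3 and the bar its SD. The lithium arrays of Hsc70-1 1636956_at and 1639380_a_at, at 238 to 317 units, sit below the untreated arrays, at 336 to 426, and the other panels show overlapping treatments.

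Marker lists of other cell types also differed with lithium. The mean log2 signal of the 10 glial markers tested, of 12 listed, differed by -0.169 for wild-type and -0.0603 for mutant heads, and its arrays did not overlap. Lithium gave 1 glial marker called lower in wild-type heads and none in mutant heads, while the summed glial signal, which did overlap, went from 11447 to 13183 units in CS_0 to 10674 to 11576 in CS_50, and from 10751 to 11469.7 in Shu_0 to 10448 to 11041 in Shu_50. The 7 photoreceptor markers tested, of 13 listed, were lower without overlap in the wild type (mean -0.15, none called, sums of 39088 to 41891 against 34927 to 36064 units). The 7 ovary and chorion markers tested, of 23 listed, were lower without overlap in the mutant (mean -0.72, 1 called, sums of 279.7 to 504 against 210.2 to 243), where the 14 muscle markers tested, of 18 listed, were higher (mean 0.15, 2 called, sums of 34277 to 36015 against 37677 to 39648). The ovary and chorion mean, centred over the 12 arrays, was 1.08 in Shu_0 replicate 2, beside 0.0135 and -0.0583 in replicates 1 and 3. In the wild type it differed by -0.596 with overlap, and CS_0 replicate 2 stood at 1.13. Of the 15 fat body markers tested, of 20 listed, 3 were called lower with lithium in wild-type heads and 2 in mutant heads, with sums of 56303 to 63699 against 48859.9 to 50368 and of 57018 to 67734 against 50378 to 61501. The mean log2 signal of the fat body markers differed by -0.174 and -0.0311, and its arrays overlapped in both contrasts. The 9 neuronal markers tested, of 12 listed, overlapped in both contrasts. As a sign of RNA quality, the 3' over 5' log2 ratio for the control gene eIF-4a was 2.77 in CS_0 and 2.48 in CS_50, and that of GAPDH 1.03 and 0.947, without overlap, while both overlapped in the mutant. For the control gene actin the ratio overlapped in both genotypes (1.22 in CS_0 and 1.13 in CS_50). The part of these in the fall of Hsc70-1 was not tested. Fewer cells of a type and less RNA per cell cannot be told apart in whole heads.

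Hsc70-4, on 3R, is the abundant cytosolic cognate. It read 3967, 3950.3 and 4179.9 units in CS_0, 3857, 3788 and 3969.6 in CS_50, 3978, 3749 and 4092 in Shu_0, and 3977, 4057 and 3758 in Shu_50. The groups overlapped in each comparison. Lithium gave -0.06 ± 0.06 in the wild type (95% interval -0.18 to 0.06, adjusted p = 0.72) and 0.00 ± 0.06 in the mutant (-0.12 to 0.11, adjusted p = 0.991). Neither interval reaches -0.24, the smaller of the wild-type differences of the bright Hsc70-1 probe sets. That difference has its own interval of -0.39 to -0.1, which overlaps the wild-type one of Hsc70-4. Whether the 2 genes differ in their response was not tested.

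DnaJ-1, on 3L, is the HSP40 that hands clients to HSP70. Its signal was 948, 937 and 821 units in CS_0, 977, 929.7 and 784 in CS_50, 866, 844 and 836 in Shu_0, and 879, 878 and 766 in Shu_50. Lithium gave -0.01 ± 0.08 in the wild type (-0.18 to 0.16) and -0.02 ± 0.08 in the mutant (-0.19 to 0.16), with adjusted p = 0.976 and 0.967. The mutant lay at -0.08 ± 0.08 untreated and -0.09 ± 0.08 on lithium relative to the wild type, again with overlap and without a call (adjusted p = 0.62 and 0.735).

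Hsp68, on 3R, is the stress-inducible HSP70 that lies outside the Hsp70 copies. Its signal was low, at 15.1, 28.4 and 21.4 units in CS_0 and 21.7, 17.5 and 26.5 in CS_50, close to the array medians. In the mutant it read 17.5, 31.4 and 41.4 in Shu_0 and 34.2, 39.8 and 47 in Shu_50. On lithium each mutant array lay above each wild-type array, with means of 40.3 ± 6.43 and 21.9 ± 4.53 units. The difference of log2 0.73 ± 0.26 (95% interval 0.19 to 1.27) was the largest of the list between genotypes, and it was not called (unadjusted p = 0.011, adjusted p = 0.243 by limma), nor under any of the 21 alternatives that could test it (log2 0.61 to 0.89). In the same comparison 18.9% of tested probe sets had arrays without overlap in either direction. Untreated, the mutant lay at 0.35 ± 0.26 (adjusted p = 0.485) with overlapping arrays.

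Hsp26 and Hsp27, the small heat shock proteins with probe sets of their own, are heat-inducible and are also switched on in development. Hsp26 read 61.5, 79.4 and 60.4 units in CS_0, 67.1, 72 and 64.1 in CS_50, 59.9, 79.8 and 61.8 in Shu_0, and 74.3, 69.6 and 51.1 in Shu_50. Its group means, from 65.0 to 67.7 units, differed by less than the SD within CS_0 (10.7). Lithium gave 0.02 ± 0.15 in the wild type (-0.30 to 0.34) and -0.05 ± 0.15 in the mutant (-0.37 to 0.27). Hsp27 read 36.2, 43.2 and 41.7 units in CS_0, 50.8, 44.8 and 41 in CS_50, 36.8, 56.6 and 33 in Shu_0, and 37, 36.6 and 53.7 in Shu_50. Lithium gave 0.15 ± 0.19 (-0.25 to 0.55) and 0.02 ± 0.19 (-0.38 to 0.42), with adjusted p = 0.809 and 0.981, and the highest values came from single mutant arrays, replicate 2 in Shu_0 and replicate 3 in Shu_50.

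**Figure D2:**
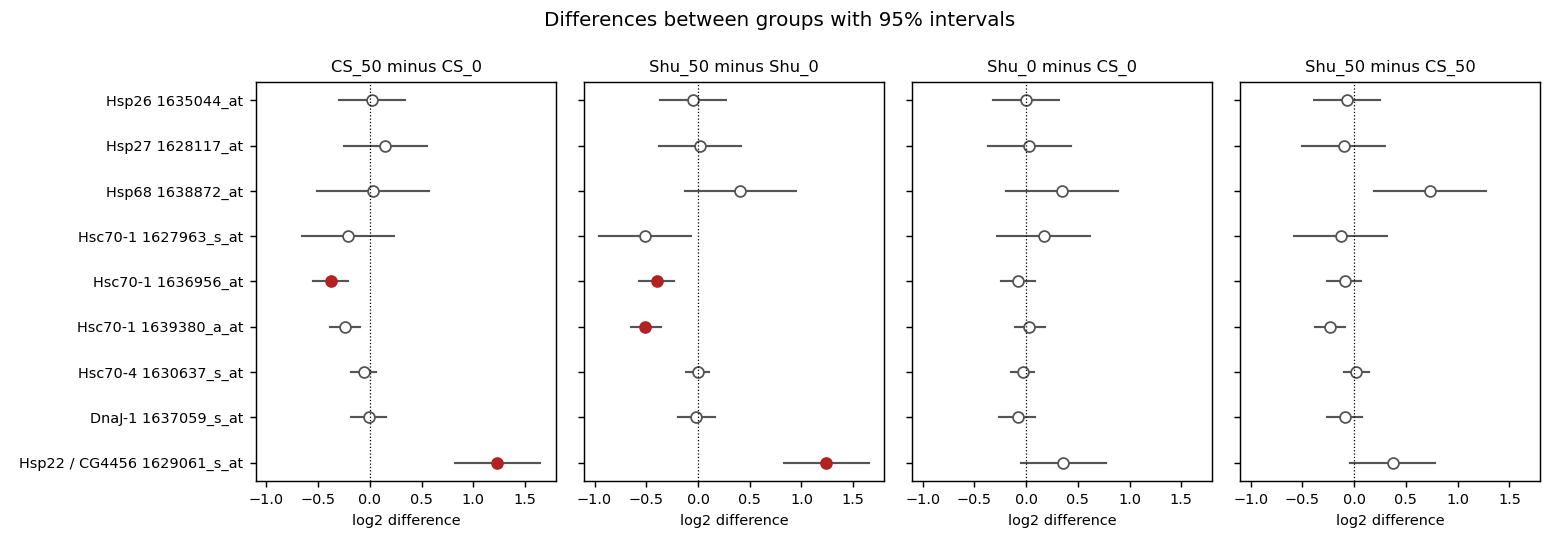
Log2 differences between groups (x axis) of the 8 probe sets and of the probe set shared by Hsp22 and CG4456, in 4 comparisons. Points are limma estimates, lines their 95% intervals, and filled red points were called. In the lithium panels Hsc70-1 lies at -0.21 to -0.51 and the shared probe set at 1.23 and 1.24, and no point is filled between genotypes.

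Hsp22, found in mitochondria, and CG4456, also called Hsp67Bb, are neighbours in the cluster of small heat shock genes on 3L. In the gene table that cluster runs through 9 genes from Hsp67Bc to Hsp27. Their shared probe set 1629061_s_at read 32.1, 76 and 50.6 units in CS_0 and 108, 129 and 144 in CS_50. In the mutant it read 65.9, 69.4 and 62.9 in Shu_0 and 163, 150.5 and 181 in Shu_50. All 6 lithium arrays lay above all 6 untreated ones. Lithium arrays above the untreated arrays of the same genotype, in both genotypes, occurred in 2.32% of tested probe sets. It was one of the 0.995% called higher in the wild type and the 1.21% in the mutant. The mean rose from 52.9 ± 22.0 to 127 ± 18.2 in the wild type (2.35-fold, log2 1.23 ± 0.19, adjusted p = 0.00237) and from 66.1 ± 3.24 to 165 ± 15.4 in the mutant (2.36-fold, 1.24 ± 0.19, adjusted p = 0.00149). The interaction was 0.01 ± 0.27 (-0.57 to 0.59, adjusted p = 0.999). With the intensity trend dropped the wild-type rise missed the threshold (adjusted p = 0.0523), and the mutant rise was called under all 22 alternatives. Between genotypes the differences of 0.36 untreated and 0.37 on lithium were not called (adjusted p = 0.323 and 0.481), although the first was without CS_0 replicate 2 (0.63, adjusted p = 0.0403). The second shared probe set, 1630487_s_at, stayed between 0.846 and 4.07 units, too dim to be tested.

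Other genes of the cluster were measured through probe sets of their own. CG4461, also named Hsp20, had a log2 difference of 0.23 ± 0.09 with lithium in the wild type (adjusted p = 0.268) and 0.05 ± 0.09 in the mutant (adjusted p = 0.892). With Hsp26 and Hsp27 this makes 3 genes of the cluster with a probe set of their own, none of them called with lithium, between genotypes or in the interaction. CG4452 and Fdx1, just outside the cluster on one side, and CG4080 beyond it on the other, were not called either.

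The small heat shock protein list held 12 genes, of which 6 were tested, and l(2)efl was the 1 called. This gene encodes a small heat shock protein related to the crystallins. Its probe set 1626416_a_at read 682, 669 and 568 units in CS_0, 775, 961 and 832 in CS_50, 815, 774 and 736 in Shu_0, and 1036, 1136 and 1073 in Shu_50. The lithium arrays lay above the untreated ones within each genotype, as in 2.32% of all tested probe sets. It rose by 0.42 ± 0.08 in the wild type (adjusted p = 0.0147) and by 0.48 ± 0.08 in the mutant (adjusted p = 0.00352). The brightest probe set, 1627242_at, rose from 2347 ± 116 to 2834 ± 65.4 units (log2 0.27 ± 0.06, adjusted p = 0.03) and from 2689 ± 38.6 to 3236 ± 249 (0.26 ± 0.06, adjusted p = 0.0296). A dim one, 1635952_at, with group means of 15.1 to 24.5 units, gave -0.16 and 0.59 and was not called. For 1626416_a_at the wild-type call needed replicate 3 of CS_0 (adjusted p = 0.0711 without it) and replicates 2 (0.0938) and 3 (0.05, just over the threshold) of CS_50, and both calls needed the intensity trend (0.131 and 0.0617 without it). Those of 1627242_at were lost when any 1 array of the genotype was left out, except replicate 2 of CS_0 and replicate 3 of Shu_50, and also with no filter or without the intensity trend (adjusted p up to 0.162), and the mutant call also with the arrays of the contrast alone (0.105).

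**Figure D3:**
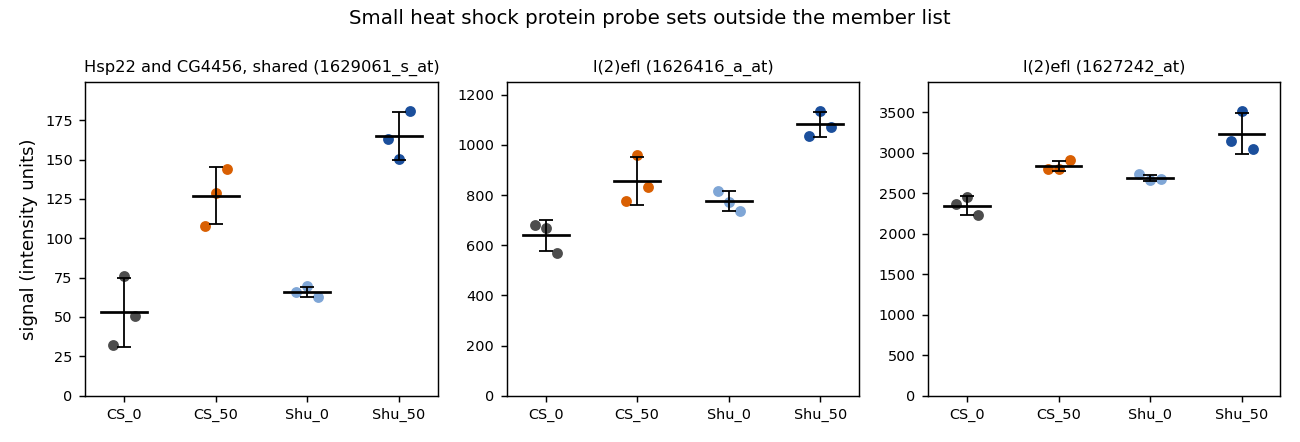
Signal in intensity units (linear axis from 0) of the probe set shared by Hsp22 and CG4456 and of the bright probe sets of l(2)efl, on each array by group. Points are arrays, wide lines means of 3 and bars SD. In each panel the lithium arrays lie above the untreated arrays of the same genotype, at 108 to 181 against 32.1 to 76 units in the first.

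The inducible Hsp70 genes are near-identical copies, and each of their probe sets names several of them. Probe set 1639571_s_at, for Hsp70Aa and Hsp70Ab, read 30.6, 34.5 and 35.7 units in CS_0, 31.2, 31.7 and 30.1 in CS_50, 26, 30.8 and 26.5 in Shu_0, and 35.3, 36.2 and 32.6 in Shu_50. The Shu_50 arrays lay above those of Shu_0 and of CS_50 without overlap, and the wild-type groups overlapped, with log2 differences of -0.09 and 0.27 on lithium (adjusted p = 0.866 and 0.539). Arrays without overlap, in either direction, occurred in 15.8% of all tested probe sets for Shu_50 against Shu_0. For Shu_50 against CS_50 the share was 18.9%. Probe set 1626821_s_at, for the Hsp70B copies, read 24.8 to 42.9 units over the 12 arrays and gave 0.38 and 0.24 (adjusted p = 0.395 and 0.695). Probe set 1632841_x_at, for Hsp70Bc and Hsp70Bb, gave 0.04 and 0.20 (adjusted p = 0.964 and 0.793). None of these was called in any comparison, and 2 more such probe sets were too dim to be tested.

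Across the wider chaperone families, 94 genes were listed and 68 tested, each through its brightest probe set. Lithium gave 1 gene higher, l(2)efl, and 1 lower, Hsc70-1, in each genotype. Over all tested probe sets 0.995% were called higher and 0.622% lower in wild-type heads, and 1.21% and 0.648% in mutant heads, so 1 of 68 is close to the background. Among the 7 HSP70 genes tested, Hsc70-3, the fly's BiP of the endoplasmic reticulum, lay at 0.09 ± 0.06 and 0.16 ± 0.06 (adjusted p = 0.541 and 0.224), and the mitochondrial Hsc70-5 at 0.09 ± 0.07 and 0.12 ± 0.07 (adjusted p = 0.643 and 0.599). Grp170 lay at -0.04 ± 0.20 and -0.02 ± 0.20, and Hsp110 at -0.02 ± 0.07 and -0.04 ± 0.07, without a call. Of the HSP90 family, Gp93 of the endoplasmic reticulum lay at 0.26 ± 0.10 and 0.25 ± 0.10 (adjusted p = 0.288 and 0.344). Trap1 of the same family lay at 0.00 ± 0.09 and 0.01 ± 0.09 and was not called. None of 25 HSP40 genes, 12 cochaperones, 11 chaperonins and 5 regulators was called with lithium in either genotype by limma. At an unadjusted p under 0.05 the 68 genes gave 6 higher and 3 lower for wild-type heads and 3 higher and 4 lower for mutant heads, where 13.1% and 11.9% of all tested probe sets passed, and their medians were 0.0264 and 0.00367, beside 0.00312 and -0.0123 over all tested. Hsf itself lay at -0.38 ± 0.14 in the wild type (adjusted p = 0.226) and 0.05 ± 0.14 in the mutant (adjusted p = 0.945).

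Between the genotypes 3 chaperone genes outside the 10 were called, all higher in the mutant. Of the 68 genes these were 2 untreated, where 5.06% of all tested probe sets were called and 2.11% called higher, and 1 on lithium, where the shares were 0.506% and 0.329%. DnaJ-H, an HSP40, stood at 336 ± 8.93 units in Shu_0 against 267 ± 17.3 in CS_0 (log2 0.33 ± 0.07, adjusted p = 0.0135). CCT5, a subunit of the cytosolic chaperonin that folds actin and tubulin, stood at 240.0 ± 6.09 against 178 ± 26.5 (0.43 ± 0.10, adjusted p = 0.0254). Arrays of the untreated genotypes did not overlap in either gene, as in 23.2% of all tested probe sets. Between the same groups the 3' over 5' log2 ratio of eIF-4a was 2.77 in CS_0 and 2.54 in Shu_0 without overlap, while those of GAPDH and actin overlapped. The mean log2 signal differed without overlap for the glial markers (-0.119, 2 called lower, sums of 11447 to 13183 against 10751 to 11469.7 units) and the muscle markers (-0.0697, 2 called lower, sums of 36636 to 38437 against 34277 to 36015). Their part in these differences was not tested. Both calls were lost without CS_0 replicate 3 (adjusted p = 0.0692 for DnaJ-H and 0.117 for CCT5) or without Shu_0 replicate 1 (0.0657 and 0.0816), and that of CCT5 also without Shu_0 replicate 2 or 3 (0.0526 and 0.0679). Of all tested probe sets, 1.37% were called between the untreated genotypes without CS_0 replicate 3 and 1.15% without Shu_0 replicate 1. On lithium STUB1, the ubiquitin ligase known as CHIP, which binds HSP70 and HSP90, stood at 531 ± 48.8 units in the mutant and 406 ± 19.0 in the wild type (0.38 ± 0.07, adjusted p = 0.0262). It missed the threshold without replicate 1 (adjusted p = 0.0979) or 3 (0.112) of CS_50, or replicate 1 (0.119) or 2 (0.121) of Shu_50, and with the arrays of the contrast alone (0.0551). Between these groups the mean log2 signal was higher in the mutant without overlap for the fat body (0.122) and muscle markers (0.0742), with none called. The other marker lists and the 3' over 5' ratios overlapped. Their part in the differences of STUB1, Hsp68 and Hsc70-1 between Shu_50 and CS_50 was not tested. STUB1 had been listed as CHIP, an ambiguous name that was replaced before any fit. None of the calls of DnaJ-H, CCT5 and STUB1 held without the intensity trend (adjusted p = 0.0731, 0.0929 and 0.149).

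**Figure D4:**
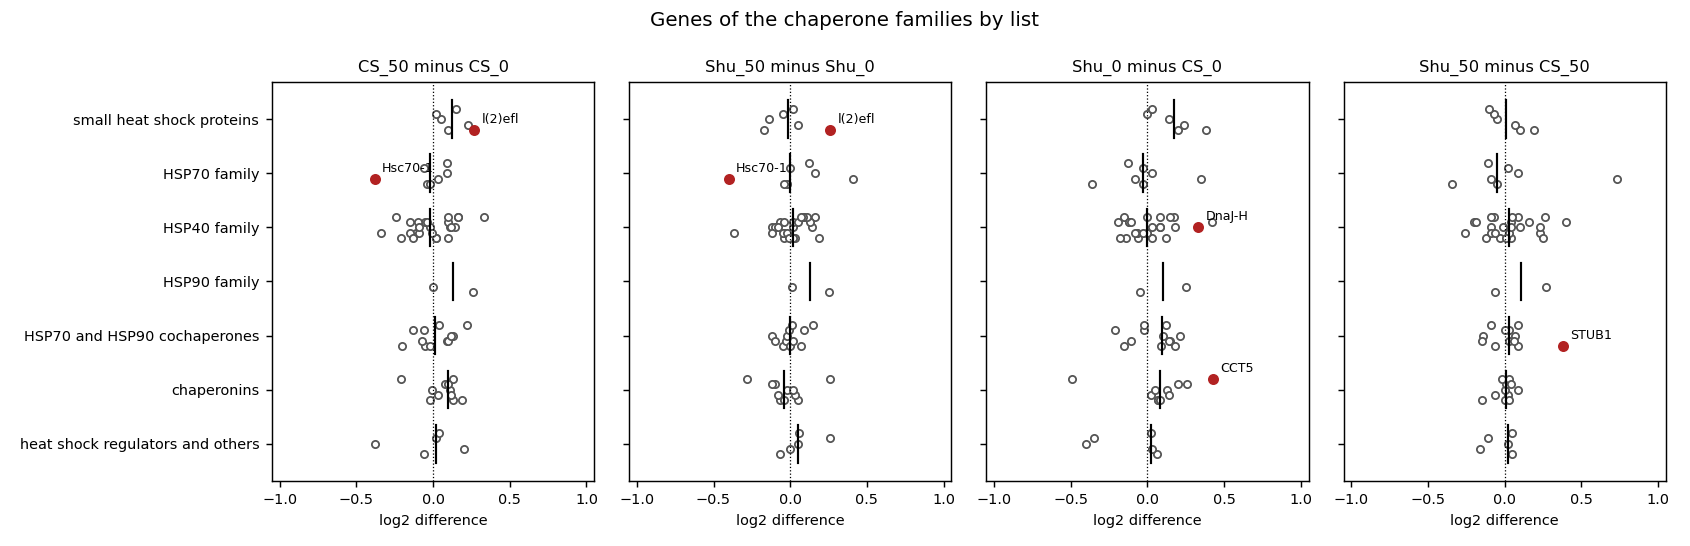
Log2 differences (x axis) of the 68 tested chaperone genes by list, in 4 comparisons. Points are genes, filled red and named where called, and black bars are list medians. With lithium l(2)efl (0.27 and 0.26) and Hsc70-1 (-0.38 and -0.40) are the filled points of both genotypes.

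The genes whose signal most resembled that of Hsc70-1 1639380_a_at over the 12 arrays, by Pearson's r among tested probe sets of 1 gene, were CG5653 (0.941), Nepl15 of the neprilysin-like family (0.922), CG13026 (0.918), CG10527 (0.912) and CG6126 (0.911). Since all 12 arrays enter, r carries the group differences, and within groups it was 0.411, 0.396, 0.579, 0.736 and 0.634 in the same order. CG5653 fell with lithium in both genotypes, by 0.73 ± 0.11 and 1.12 ± 0.11 (adjusted p = 0.00144 and 1.39e-05). Nepl15, CG13026 and CG10527 fell in the mutant, by 0.61, 0.78 and 0.32, and were not called in the wild type. Without the intensity trend the calls of CG13026 (adjusted p = 0.0503) and CG10527 (0.0596) were lost. Among the members themselves the closest pair of different genes was Hsp26 and DnaJ-1 (r = 0.502 over 12 arrays, 0.509 within groups), and for Hsc70-1 the closest other member was Hsc70-4 (0.405, with 1636956_at).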

How the data were processed

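The deposited values are intensity per Affymetrix probe set and array, labelled with a standard Affymetrix protocol per the labels; the extraction protocol was not supplied, and the software that summarised the probes is not given in the sources used here. Each column of deposited intensity had the same 2% trimmed mean (150.005), so the arrays had been scaled, and they were kept as deposited. Gene names came from the platform annotation, updated by Entrez number through the gene table of assembly Release 6 (13543 of 13646 single-gene probe sets matched). No sequences were used.

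Values were taken as log2(intensity + 6.16), the offset being the 25th percentile of all deposited values. After 183 control probe sets were removed, those at or above the 40th percentile of mean log2 (a signal of 11.5) were tested, 11261 in all. Limma 3.58.1 in R 4.3.3 fitted the group means (lmFit, eBayes with intensity trend, 8 residual degrees of freedom, two-sided, Benjamini-Hochberg over all tested), and the procedure was tested on simulated data. Exact permutation of 3 against 3 arrays cannot go below p = 0.1 and was not used. Figures used matplotlib 3.10.9 under Python 3.11.15. The description of CS_50 replicate 2 says sample 1, and its title was followed.

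The members, the gene lists and the tests were chosen with earlier results of these data known. All members were named, with list genes called through their brightest probe set, and the 5 closest genes to the member of lowest F-test p. Further probe sets, the shared ones, the neighbours, Hsc70-3, Hsc70-5, Grp170, Hsp110, Gp93, Trap1 and Hsf were added after their values were seen. Alternatives were quantile scaling, no offset (floor 1), double the offset, no filter, the 60th percentile, no trend, the arrays of a contrast alone, a replicate block, and each array left out. Leaving out CS_0 replicate 3 and Shu_0 replicate 1 together and an offset of 6.26, from the probe sets without controls, were alternatives chosen after seeing the data. The analysis was run with both offsets before 6.16, the planned one, was kept. In the gene lists 2 ambiguous names were replaced after the files were opened and before any fit, CHIP by STUB1 and l(2)tid by CG5504.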

Additional observations from a re-analysis of the deposited data

How the results depend on the processing

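The number of members called with lithium in the wild type (1) was 0 without the intensity trend and ranged from 0 to 1 when single arrays were left out. In the mutant (2) it was 1 without the intensity trend, 1 without CS_0 replicate 3 and Shu_0 replicate 1 together, and from 1 to 2 when single arrays were left out. The counts of 0 between genotypes and in the interaction, and of 2 over all 4 groups, did not change under any alternative that was run. Quantile scaling, each change of offset, that to 6.26 included, and both changes of filter left all 6 counts as they were, and the arrays of the contrast alone, run for lithium in each genotype and for the genotypes untreated and on lithium, left those 4; the filter at the 60th percentile removed the dim Hsp27, Hsp68 and Hsc70-1 1627963_s_at, which then had no value. The cause of the changes was not tested, except that leaving out arrays leaves fewer samples. Of 17 called differences of single probe sets that were rerun, 5 kept the call under every alternative. With lithium in the mutant these were Hsc70-1 1639380_a_at, the probe set shared by Hsp22 and CG4456, and Nepl15, and in both genotypes CG5653. Nepl15 and CG5653 had been picked for likeness to Hsc70-1 1639380_a_at on the same arrays. None of the 17 changed sign, and 22 of 42 uncalled ones did under some alternative; a change of sign where neither value was called was not counted as a reversal.

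Deviations from the group means correlated weakly between arrays of the same replicate number (18 pairs, r from -0.0649 to 0.0915, median 0.0249, none over 0.1). For pairs of different number r ran from -0.0751 to 0.0715 (median -0.0122). Of the 12 arrays, 7 correlated best with one of their own number, and whether the numbers mark a batch was not tested. With the replicate block the members called stayed at 1 with lithium in the wild type, 2 in the mutant, 0 in both genotype contrasts and 0 in the interaction. Precision is limited by 3 arrays per group, and the wild-type signal of Hsp68 lay near the array median.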
